A study of Homo sapiens with 16 samples.

Results

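Elastin (ELN), versican (VCAN), MFAP4, CPA4, MXRA8 and SCUBE1 are 6 genes of secreted or cell-surface proteins of the extracellular matrix. They were taken from the 64252 gene identifiers of the count tables, and they were chosen because several of them had higher counts after SH2D1A knockdown in these libraries. The knockdown differences of the 6 genes are therefore given as descriptions with no test. The samples were Jurkat and 6T-CEM cells, both established cell lines of human T-cell acute lymphoblastic leukaemia, or T-ALL, transfected with a control hairpin called sh-NC or with 1 short hairpin RNA against SH2D1A, sh-SH2D1A. SH2D1A encodes SAP, the adaptor of SLAM family receptors in T cells. Jurkat was sampled at day 8 and day 10 and 6T-CEM at day 5 and day 10. What day 0 was is missing from the labels. The 16 libraries form 8 groups of 2, and every line and day has a count table of its own, 4 in all. Whether libraries of the same group are separate cultures is not in the labels either, so a p-value here reflects only how far these libraries differ, which may be technical spread. A separate hairpin against SH2D1A, or cells without a hairpin, were not analysed here.

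The extracellular matrix is the network of proteins and sugars that cells secrete around themselves, and most of it is laid down by fibroblasts, smooth muscle and endothelium. Elastic fibres form when tropoelastin, the product of ELN, is assembled and cross-linked by lysyl oxidases on a scaffold of fibrillin microfibrils, to which MFAP4 binds. Versican is a large chondroitin sulphate proteoglycan that binds hyaluronan in the loose matrix around cells and around lymphocytes that enter tissue. CPA4 is a secreted carboxypeptidase that trims hydrophobic residues from the ends of peptides, MXRA8 is an immunoglobulin-domain membrane protein known as an entry receptor of arthritogenic alphaviruses, and SCUBE1 is a secreted and surface glycoprotein of platelets and endothelium.

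Positions are those of GENCODE 29 on GRCh38, and all 6 genes are annotated as protein coding. ELN (ENSG00000049540) lies at chr7:74027789-74069907 on the plus strand, VCAN (ENSG00000038427) at chr5:83471465-83582303 on the plus strand and MFAP4 (ENSG00000166482) at chr17:19383442-19387240 on the minus strand. CPA4 (ENSG00000128510) lies at chr7:130293134-130324180 on the plus strand, MXRA8 (ENSG00000162576) at chr1:1352689-1361777 on the minus strand and SCUBE1 (ENSG00000159307) at chr22:43197283-43343388 on the minus strand. The strand setting of the counting is not given in the sources used here, so overlapping genes on the other strand matter for what a count means. ELN-AS1, VCAN-AS1 and the 3 genes antisense to SCUBE1 held at most 6 counts in any library. MAPK7 shares 103 exon bases with MFAP4 on the other strand and held between 1082 and 1801 counts, so reads from those bases could belong to either gene.

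One stretch of ELN is shown because elastin is built from short repeats, and reads over the gene fall partly on them. It holds coding bases 949 to 1098 of transcript ENST00000358929.8 in GENCODE 29, and capitals mark in-frame runs of the codons GTN, CCN and GGN, which encode valine, proline and glycine.
ELN coding repeat: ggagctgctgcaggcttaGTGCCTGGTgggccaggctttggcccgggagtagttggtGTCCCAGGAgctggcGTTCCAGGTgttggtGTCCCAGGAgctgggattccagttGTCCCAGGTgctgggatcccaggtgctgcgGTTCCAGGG
The stretch has 6 such matches and the whole coding sequence of ELN, of 2358 bases, has 28. Of 19816 genes with a coding sequence, only 1, ELN itself, has at least that many. VCAN and SCUBE1 have 1 match each, and MFAP4, CPA4 and MXRA8 have 0.

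The region before the start of CPA4 is shown because CPA4 was the gene whose knockdown difference had opposite signs in the lines. RefSeq on GRCh38.p14 gives start windows for 3 of the 6 genes, VCAN, CPA4 and MXRA8. The CPA4 sequence below covers the 250 bases before its RefSeq start, chr7:130292911-130293160 on the plus strand. GENCODE 29 starts CPA4 within this stretch, at 130293134, so the last printed bases are exon there. Capitals mark letters of the AP-1 motif TGACTCA and of the TATA box motif TATAAA, searched on both strands.
CPA4 start region: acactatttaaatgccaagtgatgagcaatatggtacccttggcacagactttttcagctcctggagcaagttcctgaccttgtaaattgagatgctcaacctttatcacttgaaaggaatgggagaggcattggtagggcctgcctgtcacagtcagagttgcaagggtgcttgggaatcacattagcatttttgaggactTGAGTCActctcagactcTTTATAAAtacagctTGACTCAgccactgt
AP-1 letters stand at positions -48 to -42 on the other strand and -15 to -9 on the gene strand, counted from the RefSeq start site. The TATA letters at -30 to -25 on the other strand overlap those at -28 to -23 on the gene strand. These TATA letters span the GENCODE start, and the AP-1 letters at -15 to -9 lie past it. Among 35116 such windows of 300 bases, 4.95% hold the AP-1 letters and 11.5% the TATA letters. The VCAN window and 2 of the 3 MXRA8 windows hold the GC box letters GGGCGG, present in 44.95% of all windows, and the other MXRA8 window holds none of the 6 motifs searched. The other motifs searched were CACGTG (E box), TGTGGT (RUNX) and CGGAAG (ETS), which 7.26, 13.1 and 19.5% of all windows hold. These matches are letters only and describe no bound factor.

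Library totals were between 27217899 and 33788024 counts, and a count of 0 would allow up to 3 counts per library (counting error only). The targeted gene had between 4635 and 5811 counts in the 8 sh-NC libraries and between 1405 and 2609 in the 8 sh-SH2D1A libraries. Its log2 change was -1.72 ± 0.07 (SE) at Jurkat day 8, -1.60 ± 0.10 at Jurkat day 10, -1.71 ± 0.12 at 6T-CEM day 5 and -0.996 ± 0.047 at 6T-CEM day 10 (edgeR quasi-likelihood test, Benjamini-Hochberg adjusted p 3e-05, 6.3e-05, 0.00191 and 1.14e-05). The 2 sh-SH2D1A libraries of 6T-CEM day 5 differed most from each other, with a chi-square of 24.6 per degree of freedom over genes against 5.01 to 10.2 in the other 7 groups. For that day, the ELN, MXRA8 and SCUBE1 values and the number of called list genes are therefore also given without each of them. Other values of that day are given only with both libraries. All 14 T cell markers were detected in every group. Of the 14 fibroblast and smooth muscle markers, LUM and POSTN were at 0 in every library, and between 3 and 7 markers were at 0 in each group. The endothelial markers CDH5 and TEK and the packaging cell marker SALL1 were at 0 in every group. Other markers of these lists were present in every library, with 852 to 1536 counts for CDH2, 32 to 171 for KRT8 and 1725 to 3367 for PECAM1. CD79A, from a list of B cell and myeloid markers, had 402 to 2117 counts.

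ELN had few counts in every sh-NC library and many more in the sh-SH2D1A libraries of Jurkat. At Jurkat day 8 the 2 sh-NC libraries held 19 and 34 counts and the sh-SH2D1A libraries 153 and 200. At Jurkat day 10 the sh-NC libraries held 17 and 21 and the sh-SH2D1A libraries 214 and 232, and at 6T-CEM day 10 they were 55 and 50 against 204 and 155. In all 3 of these comparisons the arms were far apart. At 6T-CEM day 5 the counts were 22 and 28 against 53 and 28, and there the lower sh-SH2D1A library stood only just above the sh-NC libraries once scaled for depth. Between 17 and 55 counts lie behind each sh-NC value, so the size of each fold rests on few reads.

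Scaled for depth to CPM (counts per 1e6 counts, with TMM factors), ELN at Jurkat day 10 averaged 0.670 ± 0.107 (SD, n = 2) in the sh-NC and 7.46 ± 0.720 in the sh-SH2D1A libraries, an 11.1-fold difference or 3.47 ± 0.27 (SE) on the log2 scale. The log2 difference was 2.85 ± 0.33 at Jurkat day 8, 1.68 ± 0.25 at 6T-CEM day 10 and 0.68 ± 0.50 at 6T-CEM day 5. ELN was thus higher with the hairpin in each line, and the largest of its 4 differences was that of Jurkat day 10. At 6T-CEM day 5 the value was 0.25 without sh-SH2D1A replicate 1 and 1.01 without replicate 2. In bulk RNA, more cells that carry a transcript and more transcript per cell cannot be told apart, and this holds for every value below.

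**Figure D1:**
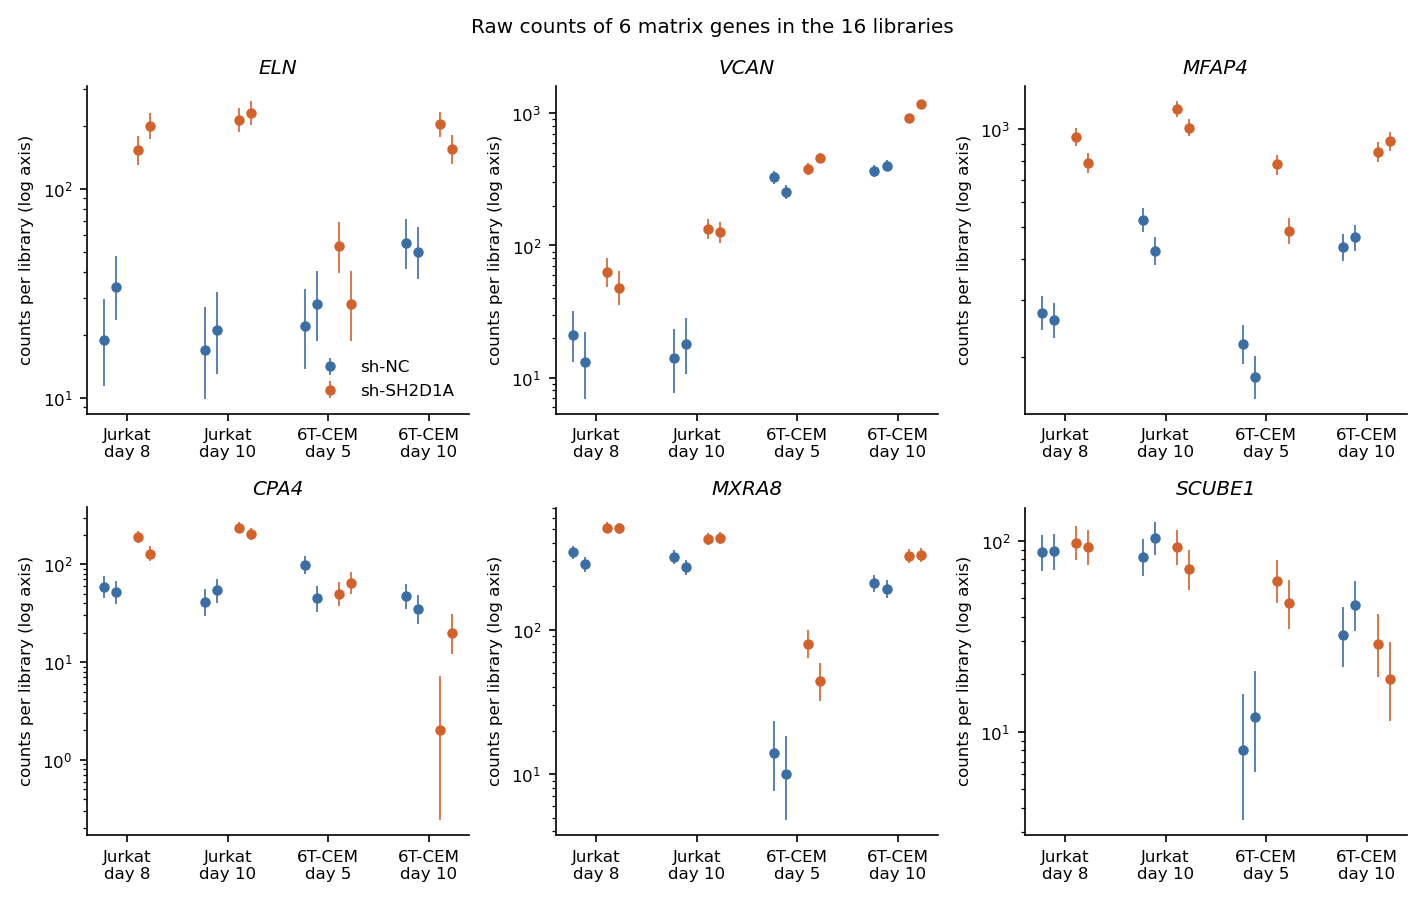
Raw counts of the 6 genes in each of the 16 libraries on a log axis, 1 panel per gene, with sh-NC in blue and sh-SH2D1A in orange. Points are libraries and bars are exact 95% Poisson intervals, which cover counting error only. ELN at Jurkat day 10 goes from 17 and 21 to 214 and 232 counts, while CPA4 at 6T-CEM day 10 goes from 47 and 35 to 2 and 20.

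MFAP4, the microfibril partner of elastin, was the gene with the most counts per kilobase in the set and had higher counts with the hairpin at each line and day. The sh-NC libraries held 274 and 260 counts at Jurkat day 8 and 528 and 424 at Jurkat day 10, against 949 and 788 and then 1154 and 1012 with sh-SH2D1A. The sh-NC libraries of 6T-CEM held 219 and 174 at day 5 and 434 and 466 at day 10, against 780 and 488 and then 852 and 919. No sh-SH2D1A library overlapped the sh-NC libraries of its day. The log2 difference was 1.80 ± 0.12 (SE) at Jurkat day 8, 1.11 ± 0.13 at Jurkat day 10, 1.69 ± 0.24 at 6T-CEM day 5 and 0.89 ± 0.09 at 6T-CEM day 10. In both lines the earlier day had the larger difference, and sh-NC MFAP4 was lower on that day. MAPK7, which shares exon bases with it, held 1241 and 1490 counts in the sh-NC libraries of Jurkat day 8 against 1291 and 1233 in its sh-SH2D1A libraries, and 1247 and 1083 against 1111 and 1158 at Jurkat day 10. At 6T-CEM day 5 it held 1508 and 1411 against 1557 and 1175, and at 6T-CEM day 10 it held 1082 and 1279 against 1546 and 1801. Only at 6T-CEM day 10 were the MAPK7 counts of the arms apart upward, as those of MFAP4 were. The part of shared reads in the MFAP4 values was not tested.

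VCAN was the gene whose level depended most on the line. In Jurkat the sh-NC libraries held 21 and 13 counts at day 8 and 14 and 18 at day 10. In 6T-CEM they held 328 and 256 at day 5 and 368 and 403 at day 10. With sh-SH2D1A the counts were 63 and 48, then 134 and 126, in Jurkat, and 379 and 460, then 929 and 1175, in 6T-CEM. Every sh-SH2D1A library lay above the sh-NC libraries of its own day, and yet every Jurkat library lay below every 6T-CEM library. The log2 difference was 1.80 ± 0.38 (SE) at Jurkat day 8, 2.94 ± 0.30 at Jurkat day 10, 0.55 ± 0.24 at 6T-CEM day 5 and 1.36 ± 0.12 at 6T-CEM day 10. In CPM this was 0.564 ± 0.106 (SD, n = 2) to 4.34 ± 0.017 at Jurkat day 10 and 12.5 ± 0.187 to 32.1 ± 4.65 at 6T-CEM day 10. The larger fold in Jurkat thus goes with the smaller gain in CPM. At Jurkat day 8 the value was 2.23 without sh-NC replicate 1 and 1.46 without sh-NC replicate 2.

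CPA4, the carboxypeptidase, differed in opposite directions in the lines at day 10. In Jurkat the counts were 59 and 52 with sh-NC against 191 and 128 with sh-SH2D1A at day 8, and 41 and 54 against 236 and 203 at day 10. The 6T-CEM counts were 99 and 45 against 50 and 65 at day 5, and 47 and 35 against 2 and 20 at day 10. The arms were apart upward at both Jurkat days, overlapped at 6T-CEM day 5 and were apart downward at 6T-CEM day 10. CPA4 passed the filter at 6T-CEM day 10 only with the sh-NC libraries, so a lower value there was partly built in. The log2 difference was 1.62 ± 0.25 (SE) at Jurkat day 8, 2.13 ± 0.24 at Jurkat day 10, -0.28 ± 0.43 at 6T-CEM day 5 and -1.99 ± 0.69 at 6T-CEM day 10. The 6T-CEM day 10 value rests on the library with 2 counts: it was -1.15 without sh-SH2D1A replicate 1 and -4.35 without replicate 2. At 6T-CEM day 5 the sign itself turned on 1 library, with 0.32 without sh-NC replicate 1.

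MXRA8, the immunoglobulin-domain membrane protein, had its lowest counts in sh-NC 6T-CEM at day 5. The sh-NC libraries held 344 and 284 counts at Jurkat day 8, 322 and 272 at Jurkat day 10, 14 and 10 at 6T-CEM day 5 and 210 and 193 at 6T-CEM day 10. With sh-SH2D1A the counts were 509 and 508, 425 and 431, 80 and 44, and 327 and 330. The arms were apart upward in all 4 comparisons, with the widest relative gap where the sh-NC level was near the minimum count of 10. The log2 difference was 0.80 ± 0.16 (SE) at Jurkat day 8, 0.45 ± 0.16 at Jurkat day 10, 2.36 ± 0.50 at 6T-CEM day 5 and 0.61 ± 0.15 at 6T-CEM day 10. The 6T-CEM day 5 value was 1.97 without sh-SH2D1A replicate 1 and 2.67 without replicate 2.

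SCUBE1, the CUB and EGF domain glycoprotein, showed no common direction. In Jurkat the counts were 87 and 88 with sh-NC against 98 and 93 with sh-SH2D1A at day 8, and 82 and 103 against 93 and 71 at day 10. In 6T-CEM they were 8 and 12 against 62 and 47 at day 5, and 32 and 46 against 29 and 19 at day 10. The arms lay close together in Jurkat, were apart upward at 6T-CEM day 5 and apart downward at 6T-CEM day 10. The log2 difference was 0.23 ± 0.22 (SE), -0.25 ± 0.26, 2.43 ± 0.52 and -0.78 ± 0.38 in the same order. SCUBE1 passed the filter at 6T-CEM day 5 only with the sh-SH2D1A libraries, so a difference there was partly built in. Without sh-SH2D1A replicate 1 and then 2, the SCUBE1 value at that day was 2.31 and 2.55.

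All 6 genes passed the filter on low counts in every comparison. ELN, VCAN, MFAP4 and MXRA8, or 4 of the 6, had both sh-SH2D1A libraries above both sh-NC libraries in all 4 comparisons, a pattern that 4.21% of the 17521 genes tested in all 4 showed. Within a single comparison, the share of tested genes apart upward was 29.1% at day 8 and 24.2% at day 10 in Jurkat, and 23.3% at day 5 and 28.1% at day 10 in 6T-CEM. The shares apart downward were 28.3 and 24.5% in Jurkat and 25.3 and 28.7% in 6T-CEM. Since the genes were picked on these contrasts, nothing is read from their count against those shares.

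**Figure D2:**
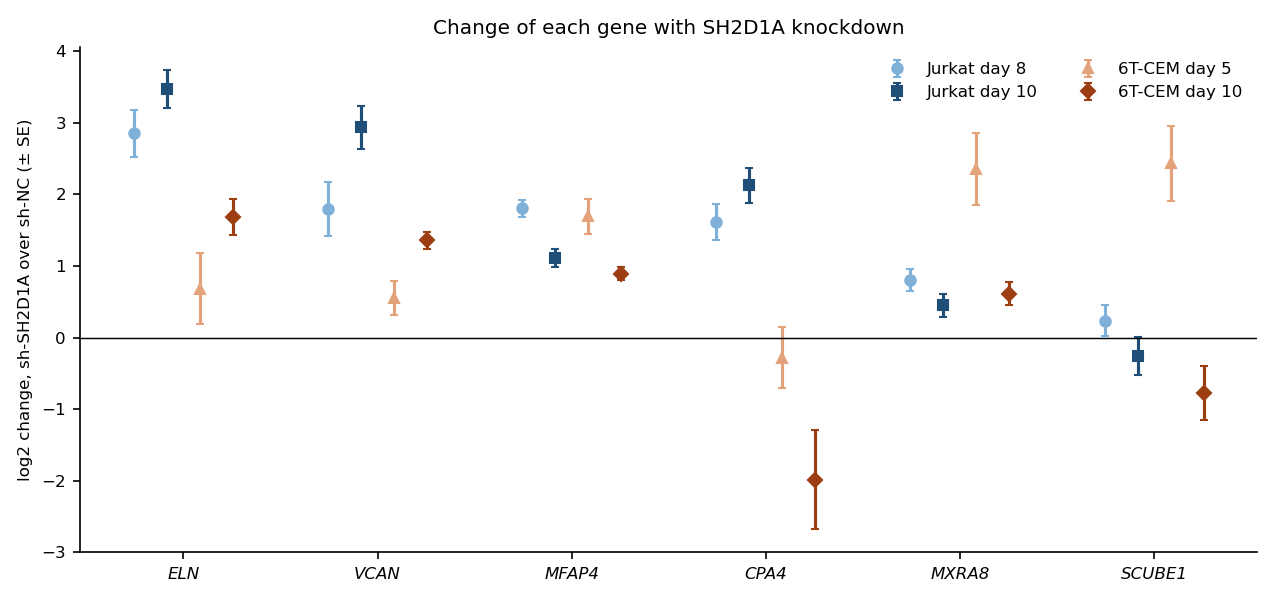
Log2 difference between sh-SH2D1A and sh-NC for the 6 genes (vertical axis, no unit), 1 marker for each line and day with its SE from the edgeR fit of that table. ELN, VCAN, MFAP4 and MXRA8 lie above 0 in all 4 comparisons, while CPA4 reaches 2.13 at Jurkat day 10 and -1.99 at 6T-CEM day 10.

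The lines can be compared at the shared day 10. From a fit of all 16 libraries, the log2 difference in Jurkat minus that in 6T-CEM was 4.11 ± 0.76 (SE) for CPA4, 1.79 ± 0.47 for ELN and 1.58 ± 0.34 for VCAN. For MFAP4 it was 0.22 ± 0.22, for MXRA8 -0.16 ± 0.28 and for SCUBE1 0.52 ± 0.42. CPA4, ELN and VCAN thus had the larger values in Jurkat, while the value for MFAP4 was about as large as its SE and that for MXRA8 was smaller than its SE. No test is given for these values, since they are built from the contrasts that chose the genes. The 2 lines come from separate tables, so line and table cannot be told apart.

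The levels without knockdown allow tests between lines and between days. The same sh-NC libraries also entered the contrasts that chose the genes, so these tests are not independent of that choice. In sh-NC cells at day 10, 4 of the 6 genes differed between Jurkat and 6T-CEM (edgeR quasi-likelihood test, Benjamini-Hochberg adjusted p under 0.05 over 22032 genes), where 36.6% of all tested genes did, 18.4% being higher in Jurkat and 18.2% lower. VCAN was 22.1-fold lower in Jurkat, at 0.564 ± 0.106 CPM (SD, n = 2) against 12.5 ± 0.187, or -4.46 ± 0.26 (SE) on the log2 scale with an adjusted p of 1.32e-08 from edgeR. ELN was also lower in Jurkat, by -1.35 ± 0.36 on the log2 scale (edgeR adjusted p = 0.00875). SCUBE1 was higher in Jurkat by 1.37 ± 0.30 (edgeR adjusted p = 0.00219) and MXRA8 by 0.67 ± 0.20 (edgeR adjusted p = 0.0175). The lines did not overlap in these 4 genes and in MFAP4, as in 35.1% (Jurkat above) and 36.0% (Jurkat below) of all tested genes. MFAP4, at 16.8 ± 2.41 against 14.6 ± 0.015 CPM, and CPA4, at 1.68 ± 0.343 against 1.34 ± 0.342, did not pass, with log2 differences of 0.20 ± 0.16 and 0.32 ± 0.51 (edgeR adjusted p = 0.366 and 0.665). The ELN call was lost without Jurkat sh-NC replicate 1 (-1.20, adjusted p = 0.0741) and without 6T-CEM sh-NC replicate 1 (-1.23, adjusted p = 0.0558). That of MXRA8 was lost without Jurkat sh-NC replicate 1 (0.55, adjusted p = 0.134) and without 6T-CEM sh-NC replicate 2 (0.55, adjusted p = 0.146).

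Between days the sh-NC levels of 6T-CEM moved far more than those of Jurkat. The Jurkat days, 8 and 10, are closer together than the 6T-CEM days, 5 and 10, so the intervals are not alike. From day 5 to day 10 in 6T-CEM, 4 of the 6 genes rose, where 39.9% of all tested genes differed, 19.3% rising and 20.6% falling. The days did not overlap in any of the 6 genes, with CPA4 lower and the other 5 higher at day 10, as in 34.3% (day 10 above) and 35.9% (day 10 below) of all tested genes. MXRA8 rose 15.3-fold, from 0.423 ± 0.0757 to 6.57 ± 0.714 CPM (SD, n = 2), a log2 change of 3.94 ± 0.27 (SE) with an edgeR adjusted p of 1.81e-07. SCUBE1 rose 3.52-fold (edgeR adjusted p = 0.000839) and MFAP4 2.10-fold (edgeR adjusted p = 0.000136). The low sh-NC counts of MXRA8 and SCUBE1 at day 5 also entered the knockdown contrasts that chose the genes. ELN rose by 0.94 ± 0.35 on the log2 scale with an edgeR adjusted p of 0.0441, a call that 8 of 10 alternatives lost. Leaving out each of the 4 libraries in turn gave between 0.73 and 1.20 for ELN. VCAN and CPA4 did not pass, at 0.28 ± 0.20 and -0.91 ± 0.50 (edgeR adjusted p = 0.293 and 0.166). The days of each line are in separate tables, so day and table cannot be told apart.

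From day 8 to day 10 in sh-NC Jurkat only MFAP4 of the 6 genes rose, by 1.02 ± 0.16 (SE) on the log2 scale or 2.02-fold (edgeR adjusted p = 0.00428), where 3.40% of all tested genes differed, 1.83% rising and 1.57% falling. Its 2 libraries went from 274 and 260 counts to 528 and 424, and the days did not overlap for MFAP4 or for SCUBE1, as in 24.9% (day 10 above) and 24.1% (day 10 below) of all tested genes. The call was lost without day 8 sh-NC replicate 2 (0.94, adjusted p = 0.0838) and without day 10 sh-NC replicate 1 (0.86, adjusted p = 0.0539). For the other 5 genes the edgeR adjusted p was between 0.699 for SCUBE1 and 0.990 for CPA4.

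Per kilobase of exon sequence the genes could be compared with each other. Tested genes in this paragraph are those with an exon length that passed the filter of the fit of all 16 libraries. MFAP4 had between 3.23 and 16.8 CPM per kilobase over the 8 groups, above 52.0 to 85.4% of these tested genes. MXRA8 had between 0.117 and 4.72, CPA4 between 0.0838 and 1.85, and VCAN between 0.0358 and 2.16. ELN had between 0.102 and 1.14, and SCUBE1 between 0.0295 and 0.269. ELN, VCAN, CPA4 and SCUBE1 were therefore below the median tested gene in every group. MXRA8 stood above 43.4 to 58.6% of the tested genes in 6 groups, and above 9.63 and 26.9% in the sh-NC and sh-SH2D1A groups of 6T-CEM day 5. At Jurkat day 10 ELN stood above 10.02% of the tested genes in the sh-NC arm and 36.1% in the sh-SH2D1A arm, so its 11.1-fold difference left it below the median gene. VCAN stood above 5.28 and 18.9% in the same groups, and above 32.9 and 46.0% at 6T-CEM day 10.

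**Figure D3:**
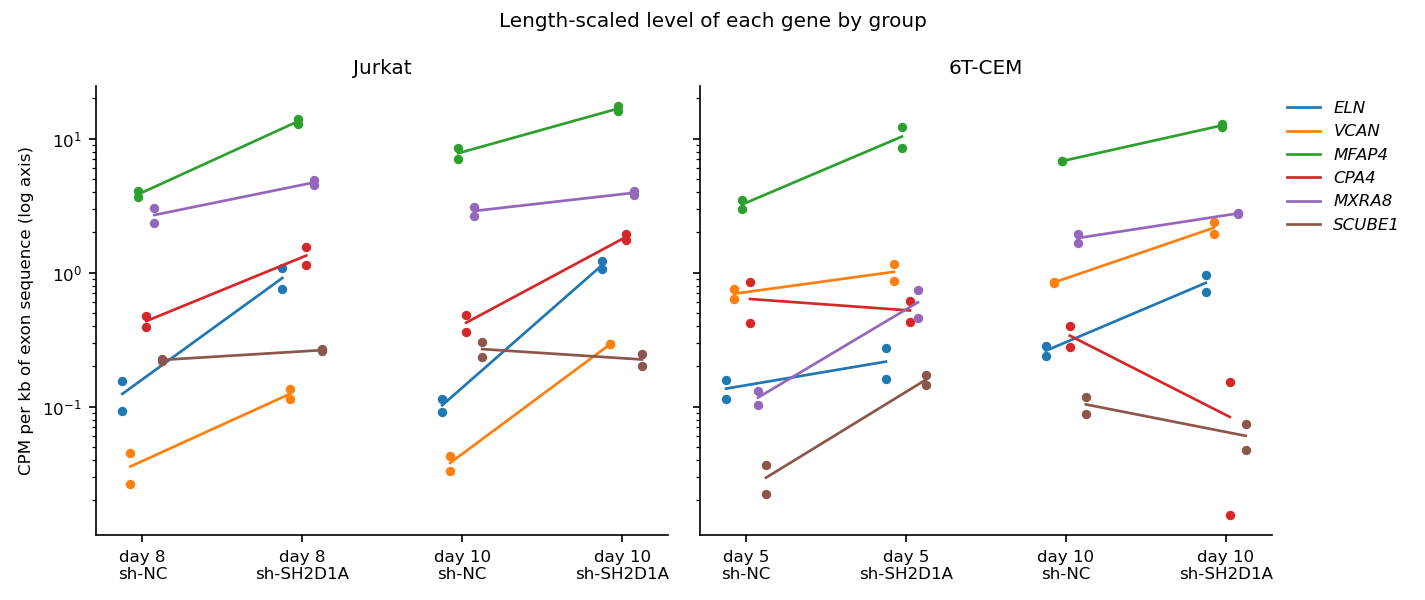
Level of each gene in CPM per kilobase of exon sequence (log axis) by line, day and hairpin. Points are libraries and lines join the group means of sh-NC and sh-SH2D1A within a day. MFAP4 is the highest gene in every group, and VCAN is the gene that stands far lower in Jurkat than in 6T-CEM.

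The order of the 8 groups differed from gene to gene. ELN was highest in sh-SH2D1A Jurkat at day 10 and then day 8, followed by sh-SH2D1A 6T-CEM at day 10, and these neighbours overlapped. The other 5 ELN groups lay below those 3, and sh-NC Jurkat at day 10 was lowest, overlapping with sh-NC Jurkat at day 8. For VCAN the first 4 places were all 6T-CEM and the last 4 all Jurkat, and only the 2 sh-NC Jurkat groups overlapped. For MFAP4 the 4 sh-SH2D1A groups took the first 4 places and the 4 sh-NC groups the last 4, with overlap only between sh-SH2D1A 6T-CEM at day 5 and sh-NC Jurkat at day 10. CPA4 was highest in sh-SH2D1A Jurkat at day 10 and lowest in sh-SH2D1A 6T-CEM at day 10, and the sh-NC Jurkat groups and both 6T-CEM day 5 groups between them overlapped with their neighbours. MXRA8 was highest in sh-SH2D1A Jurkat at day 8, and its last 2 places were the 6T-CEM day 5 groups. For SCUBE1 the 4 Jurkat groups took the first 4 places, and sh-NC 6T-CEM at day 5 was last.

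Across the 16 libraries, which share lines, days and hairpins, the 6 genes did not follow 1 pattern. The Pearson r of log2 CPM was 0.80 for ELN with MFAP4 and 0.72 for MXRA8 with SCUBE1, and -0.70 for VCAN with SCUBE1. It was 0.34 for ELN with VCAN and 0.10 for ELN with CPA4. Among 13794 genes with a symbol and a mean of at least 1 CPM, the pattern of ELN was most like those of KLHL29 (r = 0.87), SHISA8 (0.86) and ANTXR1 (0.85). VCAN was most like PROK2 (0.97), MAMLD1 (0.97) and NCAM1 (0.96), and MFAP4 most like RNF216 (0.92), RTL6 (0.91) and ANKRD52 (0.89). CPA4 was most like S1PR1 (0.92), RFX8 (0.88) and PPM1H (0.88). MXRA8 was most like MARCKSL1, NCBP2AS2 and ASMTL-AS1 (0.98 each), and SCUBE1 most like IFT27 (0.96), SOCS2-AS1 (0.92) and NIFK-AS1 (0.91). These values are descriptions over libraries of 2 lines, and a gene that differs between the lines gains from that difference alone.

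The partners of the 6 genes were described from 10 lists of 292 matrix and pathway genes that leave the 6 out. At Jurkat day 8, 8 of 179 tested list genes rose and 19 fell with sh-SH2D1A, or 15.1% called against 12.4% of all tested genes, of which 5.23% rose and 7.13% fell (edgeR, adjusted over all genes). At Jurkat day 10, 4 of 175 rose and 8 fell, 6.86% against 3.78% of all tested genes (1.26% rose, 2.52% fell). At 6T-CEM day 5, 6 of 181 rose and 7 fell, 7.18% against 2.11% (0.606% rose, 1.51% fell). At 6T-CEM day 10, 20 of 188 rose and 21 fell, 21.8% against 14.0% (6.61% rose, 7.42% fell). The median log2 change of the list genes was -0.013, -0.031, -0.0048 and -0.021 in the 4 comparisons, so the lists as a whole did not lean in the direction of ELN, VCAN, MFAP4 and MXRA8. Without sh-SH2D1A replicates 1 and 2 of 6T-CEM day 5, the number of list genes called there was 38 and 30, and without sh-NC replicates 1 and 2 it was 8 and 7. At Jurkat day 8 it was 10 and 7 without sh-SH2D1A replicates 1 and 2.

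Of the elastic fibre partners, 1 gene rose and 1 fell in 3 of the 4 comparisons, and 0 of 18 tested passed at 6T-CEM day 5. The shares called were 11.1% at Jurkat day 8, 11.8% at Jurkat day 10 and 10.5% at 6T-CEM day 10. Of all tested genes, 12.4, 3.78 and 14.0% were called there, and 2.11% at 6T-CEM day 5. FBN1, the fibrillin of the microfibril scaffold, rose by 0.85 ± 0.11 (SE) at Jurkat day 8, 0.53 ± 0.12 at Jurkat day 10 and 0.37 ± 0.07 at 6T-CEM day 10 on the log2 scale (edgeR adjusted p = 0.00372, 0.0331 and 0.00936). Its value at 6T-CEM day 5 was 0.53 ± 0.14 and did not pass (edgeR adjusted p = 0.102). EFEMP1, a fibulin, was 104 CPM in sh-NC Jurkat at day 8 and fell by 0.65 there, by 0.48 at Jurkat day 10 and by 1.14 at 6T-CEM day 10 (edgeR adjusted p = 0.000883, 0.0117 and 0.0223). At 6T-CEM day 10 its level was low, 3.14 CPM in sh-NC and 1.42 CPM in sh-SH2D1A cells. The other tested elastic fibre genes did not pass in any of these 3 comparisons.

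Among the versican and hyaluronan partners, ADAMTS1 fell in all 4 comparisons. ADAMTS1, a protease that cleaves versican, fell by 0.48 and 0.47 on the log2 scale on the 2 days of Jurkat and by 1.48 and 1.46 on those of 6T-CEM (edgeR adjusted p = 0.0106, 0.0203, 0.00618 and 3.5e-05). VCAN was higher with the hairpin in the same comparisons, and a relation of ADAMTS1 to the VCAN counts was not tested. Of the chondroitin sulphate enzymes, 3 rose and 3 fell of 22 tested at 6T-CEM day 10, or 27.3% called against 14.0% of all tested genes. CHST11, which sulphates chondroitin, fell by 0.27, 0.31 and 0.45 at Jurkat day 8, Jurkat day 10 and 6T-CEM day 10 (edgeR adjusted p = 0.0104, 0.0487 and 7.71e-05). B3GALT6, which builds the linker of the sugar chain, rose by 0.48 at Jurkat day 8 and 0.38 at 6T-CEM day 10 (edgeR adjusted p = 0.00294 and 0.000427).

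CPA4 had few tested relatives. Of the metallocarboxypeptidases and their inhibitors, 4 or 5 were tested and 1 fell at day 8 in Jurkat and on both days in 6T-CEM. The gene that fell was AEBP1, a carboxypeptidase-like protein, with log2 changes of -0.27 ± 0.05, -0.92 ± 0.16 and -0.47 ± 0.03 (edgeR adjusted p = 0.0117, 0.0204 and 7.71e-05). Of the SCUBE relatives and hedgehog genes, 0 of 14 passed at either Jurkat day, against 12.4 and 3.78% of all tested genes. HHIP, which binds hedgehog ligands, fell by 0.77 at 6T-CEM day 5 and by 0.72 at 6T-CEM day 10 (edgeR adjusted p = 0.0161 and 2.07e-05), and HHAT, which acylates them, rose by 0.89 at 6T-CEM day 10 (edgeR adjusted p = 0.019).

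The list with MXRA8's relatives and the integrin subunits had more genes that fell than rose. At Jurkat day 8, 0 of 22 rose and 5 fell, and at 6T-CEM day 10, 1 of 21 rose and 5 fell, with medians of -0.11 and -0.26. The shares called were 22.7 and 28.6%, against 12.4 and 14.0% of all tested genes. ITGA4, a subunit of the receptor for VCAM1 and fibronectin, fell by 1.16 at 6T-CEM day 10, from 299 to 133 CPM (edgeR adjusted p = 1.15e-06). It also fell by 0.81 at 6T-CEM day 5 and by 0.34 at Jurkat day 8 (edgeR adjusted p = 0.0125 and 0.0097). ITGAL, a subunit of LFA-1, fell by 0.68 at Jurkat day 8 and by 0.82 at Jurkat day 10 (edgeR adjusted p = 0.000798 and 0.000404). It also fell by 0.36 at 6T-CEM day 10 (edgeR adjusted p = 0.00197). ITGA1, a collagen receptor subunit, fell by 1.62 at 6T-CEM day 10 and by 0.57 at Jurkat day 10 (edgeR adjusted p = 0.000223 and 0.0068).

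Collagens and laminins changed in both directions. SERPINH1, the collagen chaperone HSP47, rose by 0.70 at Jurkat day 8, 1.04 at 6T-CEM day 5 and 1.20 at 6T-CEM day 10 (edgeR adjusted p = 0.0151, 0.0317 and 0.00015). COL21A1 rose by 1.81 and 1.94 in 6T-CEM at day 5 and day 10 (edgeR adjusted p = 0.0207 and 0.00104) and was not tested in Jurkat. P4HA1, which hydroxylates collagen, fell by 0.88 and 0.52 at Jurkat day 8 and day 10 (edgeR adjusted p = 0.00105 and 0.0201). It also fell by 0.27 at 6T-CEM day 10 (edgeR adjusted p = 0.0432). LAMB1, a laminin chain, rose by 0.35, 0.64 and 0.29 at Jurkat day 8, Jurkat day 10 and 6T-CEM day 10 (edgeR adjusted p = 0.0494, 0.00803 and 0.0144). Its value of 0.46 at 6T-CEM day 5 did not pass (edgeR adjusted p = 0.125). SPOCK1, a testican, rose by 1.49 at Jurkat day 10 (edgeR adjusted p = 0.0148). Of the matrix proteases, MMP14 fell by 0.99 and 1.03 in Jurkat at day 8 and day 10 (edgeR adjusted p = 0.0144 and 0.0325). MMP16 was at 0.0921 CPM in the sh-NC and 0.714 CPM in the sh-SH2D1A libraries of Jurkat day 8. It is among the genes counted as risen there, but it passed the filter only through the sh-SH2D1A libraries, so a higher level was built in.

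TGF-beta is a known inducer of elastin and versican in mesenchymal cells, and whether it bears on the levels here was not tested. Its pathway list had 7 genes that rose and 3 that fell of 22 at 6T-CEM day 10. That was 45.5% called, against 14.0% of all tested genes (6.61% rose, 7.42% fell). At 6T-CEM day 5, 4 of 20 rose and 1 fell, or 25% called against 2.11% of all tested genes. Of 19 tested in Jurkat, 2 rose and 2 fell at day 8, and 1 rose and 0 fell at day 10. Those shares were 21.1 and 5.26%, against 12.4 and 3.78% of all tested genes. PMEPA1, a TGF-beta target that dampens the pathway, rose in all 4 comparisons, by 0.68 and 0.66 in Jurkat at day 8 and day 10 and by 0.69 and 0.25 in 6T-CEM at day 5 and day 10 (edgeR adjusted p = 0.000494, 0.00257, 0.0307 and 0.003). The receptor TGFBR1 fell by 0.95 and 0.67 in 6T-CEM at day 5 and day 10 (edgeR adjusted p = 0.0172 and 0.000195). ID3, a target of BMP and TGF-beta signals, rose by 0.85 and 0.62 on those days (edgeR adjusted p = 0.0254 and 5.83e-05). The median log2 change of the list was 0.09 at 6T-CEM day 10 and -0.01 at 6T-CEM day 5.

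**Figure D4:**
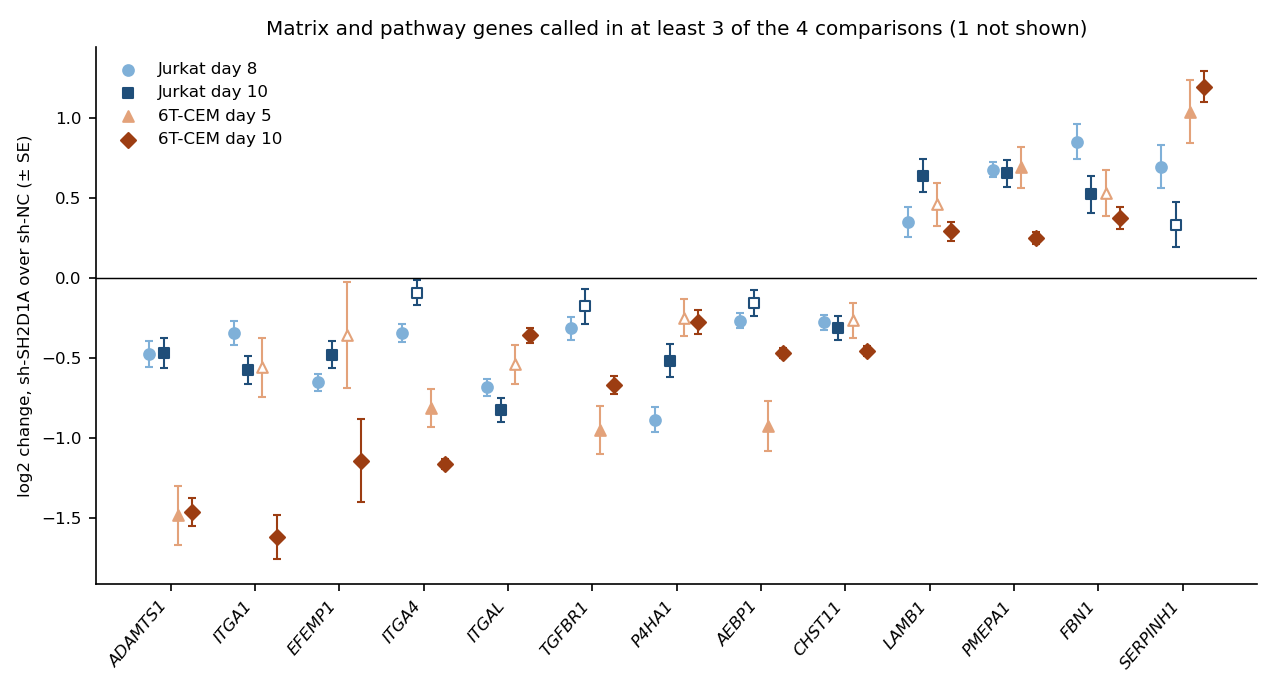
Log2 difference between sh-SH2D1A and sh-NC for the listed matrix and pathway genes called in at least 3 of the 4 comparisons, of which 1 is not shown, with the SE of the edgeR fit. Filled markers passed at an adjusted p under 0.05 and open markers did not. ADAMTS1 lies below 0 and PMEPA1 above 0 in all 4, while FBN1 is filled in 3.

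Markers of other cell types moved with some of these groups. The summed level of the 14 fibroblast and smooth muscle markers was 73.5 to 75.8 CPM in sh-NC and 131 to 134 CPM in sh-SH2D1A 6T-CEM at day 10, and 49.7 to 55.3 against 69.9 to 80.0 CPM at day 5. In Jurkat it was 51.4 to 56.1 against 58.2 to 60.6 CPM at day 8 and 53.6 to 58.6 against 52.8 to 53.9 CPM at day 10. THY1, also a surface protein of thymocytes, made up most of the difference in 6T-CEM, going from 53.0 to 111 CPM at day 10 (log2 change 1.07 ± 0.05, edgeR adjusted p = 8.84e-06). Of the 7 markers of this list tested there, 1 rose (THY1) and 1 fell, PDGFRB by 1.08 (edgeR adjusted p = 0.0384), and the median was -0.14. That was 28.6% called, against 14.0% of all tested genes. LUM and POSTN stayed at 0, and COL1A2 and COL3A1 were at or near 0. Other markers of the list were present in all 16 libraries, with 94 to 307 counts for COL1A1 and 150 to 329 for TAGLN. ACTA2 had 47 to 156 and MYH11 29 to 99. The summed T cell markers were 3618 to 3719 CPM in sh-NC against 3088 to 3133 CPM in sh-SH2D1A Jurkat at day 8, and 3857 to 4068 against 3495 to 3831 CPM at day 10. In 6T-CEM the sums were 2107 to 2144 against 2191 to 2277 CPM at day 5 and 2217 to 2242 against 2074 to 2175 CPM at day 10. Of the 14 T cell markers, 9 fell at Jurkat day 8 and 4 at Jurkat day 10, 0 passed at 6T-CEM day 5, and 3 rose and 6 fell at 6T-CEM day 10. The shares called were 64.3, 28.6, 0 and 64.3% in that order, against 12.4, 3.78, 2.11 and 14.0% of all tested genes. PECAM1, of the endothelial list, fell by 0.28 and 0.53 on the 2 days of Jurkat and by 0.73 at 6T-CEM day 10 (edgeR adjusted p = 0.0133, 0.0107 and 5.95e-05). The part of these markers in the levels of the 6 genes was not tested.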

How the data were processed

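Messenger RNA of 16 libraries was measured by sequencing. Per the labels' protocols, total RNA was extracted with TRIzol and made into TruSeq libraries, and hg38, HISAT2 2.2.0 and StringTie appear in the submitters' processing notes. The deposited values are whole-number counts per Ensembl gene that the authors had not normalised, and the step that made them, its annotation and its strand setting are not stated in the labels or the tables. The 6 genes, the gene lists and the tests were chosen with earlier results of these data known.

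Each of the 4 tables was fitted on its own with edgeR 4.0.16 in R 4.3.3: filterByExpr with a minimum count of 10, TMM, and glmQLFTest (two-sided quasi-likelihood), with p adjusted by Benjamini-Hochberg over the genes tested and calls under 0.05. Contrasts between lines and days, CPM levels and the Jurkat minus 6T-CEM differences came from 1 fit of all 16 libraries (22032 genes). The SE is the absolute log2 change over the square root of F. Lengths are unions of GENCODE 29 exons. The scripts were tested on simulated data. The rule for named genes took the 6 genes, SH2D1A, genes overlapping the 6, the 3 genes most like each by Pearson r (prior count of 2), and up to 3 called genes with the lowest adjusted p per list and comparison. FBN1, PMEPA1 and others are also given where they missed that limit or the threshold. Alternatives were DESeq2 1.42.0 size factors and its Wald test, other filters, a replicate block, other libraries in the fit and each library left out. No sample was left out. One listed gene is counted but not reported here. Replicate numbers were not used as pairs.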

Additional observations from a re-analysis of the deposited data

Results flagged for a closer look

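CPA4 had log2 differences of opposite sign in the lines at day 10, 2.13 in Jurkat and -1.99 in 6T-CEM, with every library of the sh-SH2D1A arm on 1 side of the sh-NC arm in each line. The difference between the lines was not tested. In 6T-CEM the value rests on libraries with 2 and 20 counts, against 47 and 35 with sh-NC. CPA4 passed the filter there only with the sh-NC libraries, so a lower value was partly built in.

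SCUBE1 had log2 differences of opposite sign on the 2 days of 6T-CEM, 2.43 at day 5 and -0.78 at day 10, again with the arms apart on each day. The difference between the days was not tested. The counts behind it were 8 and 12 against 62 and 47 at day 5, and 32 and 46 against 29 and 19 at day 10. At day 5 SCUBE1 passed the filter only with the sh-SH2D1A libraries, so a higher value was partly built in.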

How the results depend on the processing

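The knockdown differences of the 6 genes kept their direction under every alternative run, except CPA4 at 6T-CEM day 5, which was 0.32 without sh-NC replicate 1. In sh-NC Jurkat at day 10 against day 8, where none of these was called, the sign turned for CPA4 (-0.27 to 0.15 on leaving out 1 library), ELN (-0.61 to 0.15), VCAN (-0.24 to 0.52) and MXRA8 (-0.066 to 0.29). Numbers of called genes over all genes moved more. With no filter they were 873 at Jurkat day 8, 0 at Jurkat day 10 (3533 at an unadjusted p under 0.05 in edgeR, and 1052 by the filtered DESeq2 Wald test) and 1099 at 6T-CEM day 10, against 2381, 721 and 2752. With all 16 libraries in the fit they were 1323 at Jurkat day 8, 3108 at 6T-CEM day 5 and 916 at 6T-CEM day 10. The Wald test gave 1118 against 412 at 6T-CEM day 5 and 1561 against 749 for the days of Jurkat. With the replicate block they were 1423 at Jurkat day 10 and 2188 at 6T-CEM day 5, while the deviations of equal replicate numbers correlated across genes at 0.018, 0.016, 0.010 and 0.006, so the numbers were not taken as pairs. Leaving out 1 library gave 633 to 2978 at Jurkat day 8, 298 to 2865 at 6T-CEM day 5 and 94 to 335 for the days of Jurkat. The cause was not tested.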
